A study of Mus musculus with 8 samples.

Results

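Genes of neuronal calcium-binding proteins were compared between the brains of young-adult and aged mice. The group comprised 9 of the 22430 genes listed in the count table, chosen by name: Calb1, Calb2, Pvalb, Scgn, Hpca, Ncald, Vsnl1, Calm2 and Calm3. All 9 passed the filter on low counts and were among the 16730 genes tested. The brains came from male mice of the inbred strain C57Bl/6JRj, 4 of 6 months (6m) and 4 of 24 months (24m), and no treatment or engineered allele is named for either age. Each library came from a separate animal. The tissue is labelled as whole brain in some descriptions and as a hemisphere in others, so every value below is an average over brain regions and cell types. Polyadenylated RNA was made into directional libraries and sequenced on an Illumina instrument.

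Calcium that enters a neuron is bound by proteins whose binding loop lies between a pair of helices, the EF hand. Buffers such as calbindin, calretinin and parvalbumin bind calcium and shape how long a signal lasts, and each marks particular neurons, such as Purkinje cells for calbindin and fast-spiking interneurons for parvalbumin. Sensors such as calmodulin and the neuronal calcium sensor proteins change shape on binding and then act on enzymes, channels or membranes.

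Calm2 and Calm3 have the closest sequence relation in the group. They lie on different chromosomes, and their canonical transcripts, translated from the GRCm39 reference, encode the same 149 residues. Their coding sequences differ by synonymous bases, with 82.6% identity (369 of 447 bases). The stretch for residues 21 to 30, shown to illustrate how reads from these genes can be told apart, has capitals where a base differs from Calm2:
Calm2: gacaaggacggggatgggacaataacaaca
Calm3: gacaaggaTggAgatggCacCatTacCacC
Calm3 differed from Calm2 at 7 of these 30 bases. Among the other members, Hpca and Ncald were the closest relatives, with 88.1% identical residues in the alignment. Vsnl1 shared 66.7% with Hpca and 67.7% with Ncald. Calb1 and Calb2 shared 58.1%, and Scgn shared 33.3% with Calb1 and 34.5% with Calb2. The PROSITE pattern of the EF-hand loop matched 5 times in Calb2, 4 times in Calb1, Scgn, Calm2 and Calm3, 3 times in Hpca, Ncald and Vsnl1, and 2 times in Pvalb.

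Library totals ranged from 63460940 to 103462414 counts, and no member had fewer than 62 counts in a library. The 24m replicate 1 library had the highest total and stood apart. Its chi-square per degree of freedom was 179 to 417 against the other 24m libraries, which differed among themselves by 12.97 to 61.2. The scaling factors by trimmed mean of M values (TMM) were 0.887 to 0.957 at 6m and 1.00 to 1.13 at 24m. Neuronal identity of the tissue was checked with 7 pan-neuronal markers, all detected, whose summed level was 3633 to 3756 CPM at 6m and 3753 to 3970 CPM at 24m. CPM denotes counts per 1000000 counts of a library after TMM scaling.

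Calls required a p of at most 0.05 in the quasi-likelihood test of edgeR, after Benjamini-Hochberg adjustment over all genes tested, and an absolute log2 fold change of at least 0.58. Of the 9 genes, 1 rose with age (Ncald), 2 fell (Pvalb and Scgn) and 6 were not called. Across all genes tested, 43.6% were called, 25.3% as higher and 18.3% as lower at 24m. The share of called members was therefore not above the background of this comparison. Considering the adjusted p alone, 7 of the 9 passed, and the exceptions were Vsnl1 and Calm3. By the same rule, 5479 of the 16730 genes tested were higher and 4999 were lower at 24m, so most genes passed. The libraries of the ages did not overlap for 4 of the 9 genes (Calb1, Hpca, Ncald and Calm2), against 55.2% of all genes tested. The median log2 fold change was -0.35 over the 9 genes and -0.0034 over all genes tested. In bulk tissue, fewer cells of a type and less RNA per cell cannot be told apart.

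**Figure D1:**
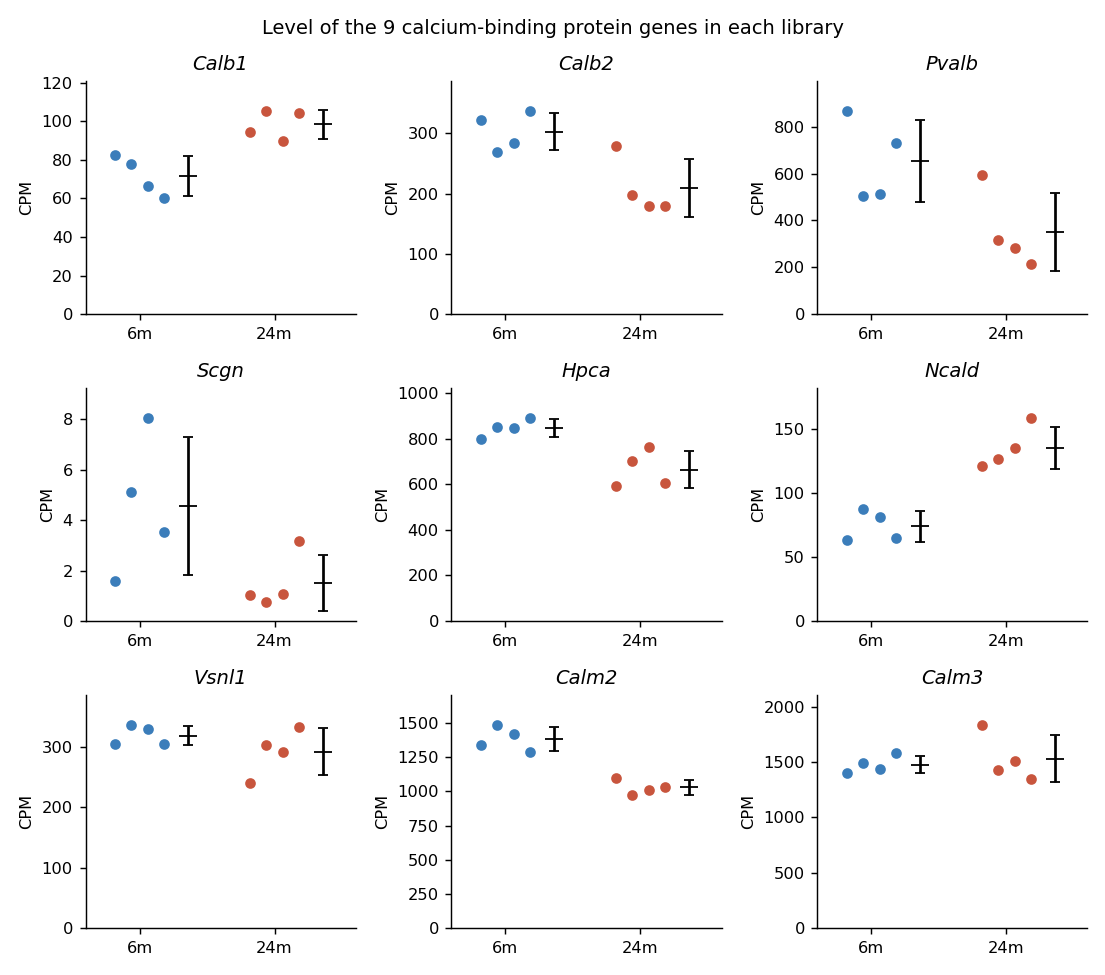
CPM (vertical axes, each from 0) of the 9 genes in the 4 libraries of 6m (blue) and the 4 of 24m (red), replicates 1 to 4 from left to right; black marks show the mean and SD. Calb1, Hpca, Ncald and Calm2 had no overlap between ages, and the 24m replicate 1 library lay highest among the 24m libraries for Calb2, Pvalb and Calm3.

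Among the buffers, Calb1 encodes calbindin, the buffer of Purkinje cells and of hippocampal granule cells (ENSMUSG00000028222, GRCm39 chromosome 4, 15881155 to 15908085, plus strand). At 6m its level was 82.7, 77.9, 66.4 and 60.2 CPM, and at 24m it was 94.5, 105, 90.0 and 104 CPM. Every 24m library lay above every 6m library. The log2 fold change was 0.46 ± 0.11 (SE, edgeR adjusted p = 0.00588), under the fold-change threshold, so Calb1 was not called. With the length trend removed it was 0.25 (adjusted p = 0.0727). The Purkinje cell markers had a summed level of 499 to 743 CPM at 6m and 867 to 1095 CPM at 24m, with 6 of 8 called higher, none called lower and none at 0. Itpr1, an intracellular calcium release channel, was among the markers called higher, with 187 ± 23.9 CPM at 6m and 564 ± 193 CPM at 24m (SD, n = 4 each). The rise of the summed level was mostly that of Itpr1. Pcp2 (236 ± 75.4 CPM at 6m and 163 ± 77.0 CPM at 24m) was not called. Slc1a6 (84.8 ± 19.2 and 81.0 ± 23.0 CPM) was not called either, and both were named after their values were seen. The part of Purkinje cells in the level of Calb1 was not tested.

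Calb2 encodes calretinin, a buffer of interneurons and cerebellar granule cells (ENSMUSG00000003657, chromosome 8, 110864128 to 110894881, minus strand). Its level was 322, 270, 284 and 336 CPM at 6m and 279, 198, 180 and 180 CPM at 24m. The ages overlapped through the 24m replicate 1 library alone, which lay within the range of 6m. The log2 fold change was -0.53 ± 0.15 (SE, with edgeR adjusted p = 0.0112), short of the fold-change threshold. Without the 24m replicate 1 library it was -0.69 and Calb2 was called lower, whereas it was -0.04 (edgeR adjusted p = 0.734) once a trend of counts with gene length was removed. The cerebellar granule cell markers, summed, had 183 to 282 CPM at 6m and 358 to 387 CPM at 24m, with 6 of 7 called higher and none lower. The 14 markers of GABAergic interneurons had 7 called higher and 2 lower, with a summed level of 1117 to 1212 CPM at 6m and 1124 to 1512 CPM at 24m. No marker of either list was at 0, and their part in the level of Calb2 was not tested.

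Pvalb encodes parvalbumin, the buffer of fast-spiking interneurons that Purkinje cells also contain (ENSMUSG00000005716, chromosome 15, 78075314 to 78091149, minus strand). Its level was 865, 506, 514 and 732 CPM at 6m and 592, 315, 284 and 216 CPM at 24m. The 24m replicate 1 library exceeded 2 of the 6m libraries, and the other 24m libraries lay below all of 6m. Pvalb fell, at a log2 fold change of -0.89 ± 0.30 with an edgeR adjusted p of 0.0258, a level 1.86-fold higher at 6m. The call was lost on leaving out any of 5 libraries. Its edgeR adjusted p rose above 0.05 on leaving out 6m replicate 1 (adjusted p = 0.0806) or replicate 4 (0.0655) of that age, and likewise without 24m replicate 2 (0.0652), replicate 3 (0.0709) or replicate 4 of the same age (0.0526). Without the 24m replicate 1 library its log2 fold change was -1.26, with an edgeR adjusted p of 0.000181.

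The other markers of fast-spiking interneurons moved in both directions. Of 8 such genes, 3 rose and 2 fell, and their summed level was 187 to 204 CPM at 6m and 220 to 335 CPM at 24m, with none at 0. Syt2, a synaptotagmin of fast synapses, rose by 1.90 on the log2 scale (edgeR adjusted p = 5.96e-05), as did the potassium channel genes Kcnc1 (0.64) and Kcnc2 (0.72). Cox6a2, a respiratory chain subunit, fell (log2 fold change -1.05) and so did Vwc2, a secreted protein gene (-0.64). Pthlh (-0.50, every 24m library below every 6m library), Acan (0.07) and Hapln1 (0.48), named after their values were seen, were not called. Kcnc1 made up most of the summed level in every library (mean 117 CPM at 6m and 182 CPM at 24m). The rise of the summed level was mostly that of Kcnc1 and Syt2 (mean 13.1 CPM at 6m and 49.2 CPM at 24m). Pcp2, a Purkinje cell gene singled out after its values were seen, was at 336, 198, 162 and 249 CPM at 6m and at 274, 154, 127 and 98.6 CPM at 24m. In the 24m libraries its order was that of Pvalb. Its log2 fold change was -0.53 ± 0.32 (SE, with edgeR adjusted p = 0.166). The part of either cell type in the level of Pvalb was not tested.

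Scgn encodes secretagogin, a calcium sensor found in interneurons of the olfactory bulb among other cells (ENSMUSG00000021337, chromosome 13, 24137420 to 24175197, minus strand). It gave few counts, with 1.57, 5.11, 8.03 and 3.54 CPM at 6m and 1.03, 0.774, 1.07 and 3.15 CPM at 24m. The ages overlapped, since the 24m replicate 4 library exceeded the 6m replicate 1 library. Scgn fell with a log2 fold change of -1.60 ± 0.54 (SE, with edgeR adjusted p = 0.0268). The call was lost on leaving out replicate 2 (adjusted p = 0.0548) or 3 (0.0862) of the 6m group, or replicate 2 (0.0695) or 3 (0.0712) of the 24m group.

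The level of Scgn was set beside 8 olfactory bulb markers, because the bulb is a small structure that a dissection may hold in varying amounts. Their summed level was 83.8, 152, 203 and 130 CPM at 6m and 62.1, 52.6, 49.8 and 113 CPM at 24m. The 5 libraries with the highest Scgn level were also the 5 with the highest marker level, in the same order. Per 100 counts of these markers, Scgn had 2.98 ± 0.895 counts at 6m (SD, n = 4; range 1.87 to 3.96) and 2.02 ± 0.592 at 24m (range 1.47 to 2.80). The ages therefore overlapped on this scale as well.

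Of the 8 markers, 3 fell and 1 rose, with none at 0. Doc2g, a gene of mitral and tufted cells, made up most of the summed level in the 6m replicate 3 library. It was at 22.8, 73.3, 114 and 51.5 CPM at 6m and at 12.8, 8.15, 8.32 and 35.1 CPM at 24m, with a log2 fold change of -2.02 ± 0.57 (SE, with edgeR adjusted p = 0.0116). Lbhd2 (log2 fold change -1.35) and Th, the rate-limiting enzyme of dopamine synthesis (-0.71), also fell, and Shisa3 rose (0.84). Doc2g and Th together made up most of the summed level in every library. Th was at 41.0, 47.3, 52.0 and 50.1 CPM at 6m and at 33.0, 26.2, 24.3 and 32.5 CPM at 24m. Counts of Th from outside the bulb could not be separated here, in the sum or in the ratio of Scgn to these markers. Cdhr1 (0.48), Sp8 (0.49), Eomes (-0.08) and Tbx21 (-0.99), named after their values were seen, were not called. Cdhr1 (23.0 CPM), Sp8 (4.17), Eomes (3.66) and Shisa3 (6.14) were higher in 24m replicate 4 than in any other library, unlike Doc2g, Th, Lbhd2 and Tbx21. The part of the amount of olfactory bulb in the level of Scgn was not tested.

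**Figure D2:**
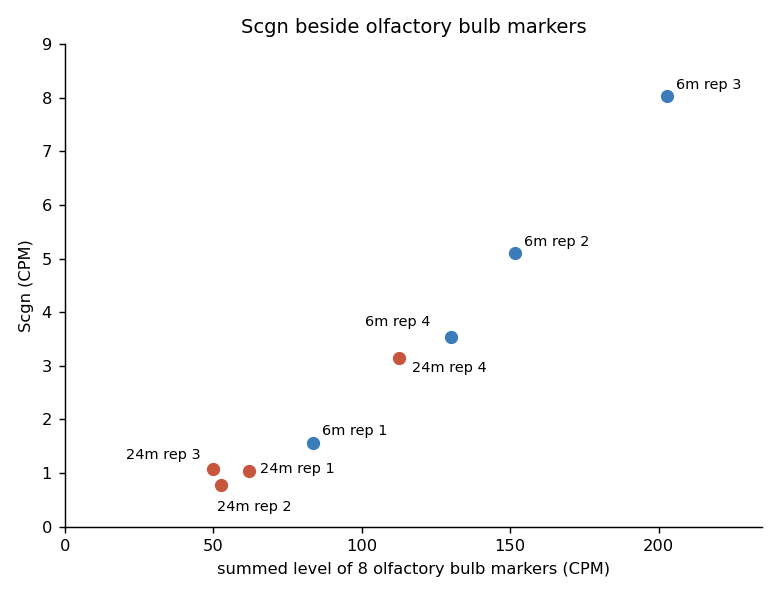
Scgn level (vertical axis, CPM) against the summed level of 8 olfactory bulb markers (horizontal axis, CPM) in each library, blue for 6m and red for 24m. The 24m replicate 4 library, at 3.15 CPM of Scgn and 113 CPM of the markers, lay between 6m libraries, and the other 24m libraries lay lowest on both axes.

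Among the other sensors, Ncald encodes neurocalcin delta, a myristoylated protein that moves to membranes on binding calcium (ENSMUSG00000051359, chromosome 15, 37363739 to 37792843, minus strand). Its level was 62.98, 87.4, 81.2 and 65.0 CPM at 6m and 121, 126, 135 and 158 CPM at 24m. All 24m libraries lay above all 6m libraries. Ncald rose by 0.87 ± 0.13 on the log2 scale (edgeR adjusted p = 0.000463), or 1.82-fold. It was called under 20 of 21 alternative settings. After removal of the length trend Ncald had a log2 fold change of 0.31 and an edgeR adjusted p of 0.0339, below the fold-change threshold. Its exons, merged over all transcripts, cover 17265 bases, the longest among the 9 genes. The annotation places 7 other genes on the same strand within its span, and reads shared with them could not be separated here.

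Hpca encodes hippocalcin, the sensor abundant in hippocampal pyramidal cells (ENSMUSG00000028785, chromosome 4, 129005306 to 129015916, minus strand). Its level was 797, 852, 848 and 889 CPM at 6m and 590, 700, 761 and 603 CPM at 24m. Despite its close kinship with Ncald, Hpca differed in the opposite direction, with all 24m libraries below all 6m libraries and a log2 fold change of -0.35 ± 0.10 (SE, with edgeR adjusted p = 0.0131, not called). With library totals alone the adjusted p of Hpca was 0.2997. With the GC trend removed its log2 fold change was -0.18 (edgeR adjusted p = 0.190). The log2 ratio of Ncald to Hpca counts within a library, which is independent of library scaling factors, was -3.53 ± 0.23 at 6m and -2.29 ± 0.26 at 24m (SD, n = 4 each). Its ranges were -3.77 to -3.29 and -2.49 to -1.93, without overlap. The difference between the fold changes of these genes was 1.22 on the log2 scale and dropped to 0.67 with the length trend removed. Of the 9 markers of forebrain pyramidal and granule neurons, 6 were called higher, none lower and none was at 0, with a summed level of 1405 to 1720 CPM at 6m and 1687 to 2090 CPM at 24m. The exceptions were Slc17a7 (log2 fold change 0.27), Neurod6 (-0.12) and Emx1 (-0.48, edgeR adjusted p = 0.0141), named after their values were seen. The part of these cells in the level of Hpca was not tested.

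Vsnl1 encodes visinin-like protein 1, a sensor of the same family (ENSMUSG00000054459, chromosome 12, 11375161 to 11488178, minus strand). Its level was 304, 336, 329 and 306 CPM at 6m and 240, 303, 292 and 334 CPM at 24m. The ages overlapped, and only the 24m replicate 1 library stood clearly below the rest. The log2 fold change was -0.13 ± 0.11 (95% interval -0.36 to 0.11, edgeR adjusted p = 0.318). Its sign turned with the scaling, to 0.10 with library totals alone and to 0.07 with the length trend removed. With the GC trend removed it was -0.31 (edgeR adjusted p = 0.00324, not called).

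Calm2 and Calm3 encode calmodulin, the sensor that activates calcium-dependent kinases, the phosphatase calcineurin and the plasma membrane calcium pumps. Calm2 (ENSMUSG00000036438, chromosome 17, 87740829 to 87754363, minus strand) was at 1342, 1486, 1422 and 1287 CPM at 6m and at 1099, 974, 1009 and 1035 CPM at 24m. The ages did not overlap. The log2 fold change was -0.43 ± 0.09 (SE, with edgeR adjusted p = 0.00211, not called), but turned to 0.19 (adjusted p = 0.178) with the length trend removed. Calm2 had the shortest merged exons of the group, 1478 bases.

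Calm3 (ENSMUSG00000019370, chromosome 7, 16649290 to 16658156, minus strand) was at 1401, 1490, 1439 and 1581 CPM at 6m and at 1836, 1429, 1506 and 1349 CPM at 24m. The 24m libraries spanned the whole range of 6m and went beyond it on both sides. The log2 fold change was 0.05 ± 0.11 (95% interval -0.20 to 0.30, edgeR adjusted p = 0.708), and it was -0.04 without the 24m replicate 1 library.

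Since Calm2 and Calm3 encode an identical protein, the share of Calm2 in their joint counts was computed within each library, a measure chosen after the data were seen. It was 48.9%, 49.9%, 49.7% and 44.9% at 6m and 37.5%, 40.5%, 40.1% and 43.4% at 24m. Every 24m library lay below every 6m library, with means of 48.4% ± 2.36 at 6m and 40.4% ± 2.44 at 24m (SD, n = 4 each). The summed level of both genes was 2862 ± 95.01 CPM at 6m and 2560 ± 257 CPM at 24m, and the ages overlapped through the 24m replicate 1 library. The merged exons of Calm3 and Calm2 cover 2603 and 1478 bases. Once the length trend was removed the log2 fold changes of Calm3 and Calm2 were 0.39 and 0.19, and the difference between them shrank from 0.48 to 0.20, whereas removal of a GC trend widened it to 0.91.

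**Figure D3:**
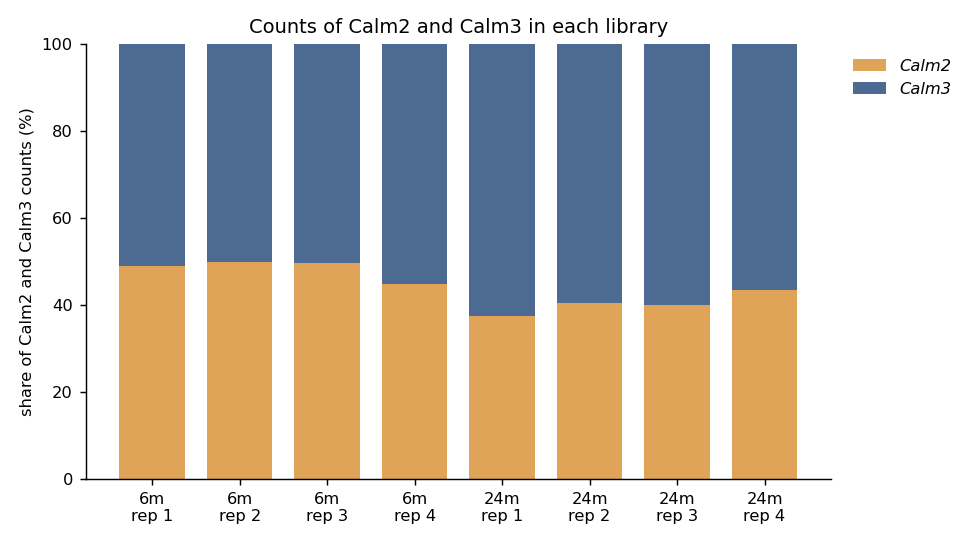
Share of Calm2 and Calm3 in their joint counts in each library (stacked bars, percent, 0 to 100). The Calm2 share was 44.9% to 49.9% in the 6m libraries and 37.5% to 43.4% in the 24m libraries.

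Other scalings changed several of these values, as the plot of fold changes by scaling shows. Scaling by library totals alone moved the median of the log2 fold changes over all genes to 0.21. The order of the 9 genes by fold change was the same as with TMM. That order is largely fixed, since only a single factor per library changes. Pvalb (-0.69, edgeR adjusted p = 0.0502) and Scgn (-1.37, adjusted p = 0.0656) were no longer called and Calb1 (0.67) was. With the length trend removed, Pvalb was the member that stayed called (-0.78, edgeR adjusted p = 0.0264), and Scgn had -0.98 (adjusted p = 0.164).

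**Figure D4:**
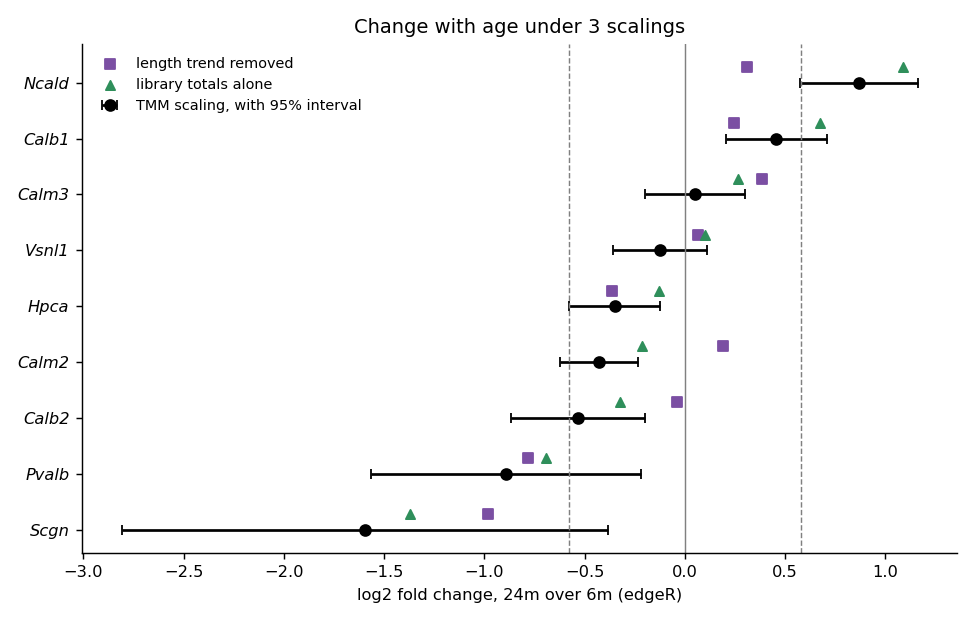
Log2 fold change of 24m over 6m (horizontal axis) for the 9 genes: black points show TMM scaling with the 95% interval, green triangles library totals alone and purple squares the length trend removed; dashed lines mark the threshold of 0.58 in either direction. Calm2 and Vsnl1 crossed 0 with the length trend removed, and Vsnl1 did so with library totals alone too.

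Levels between the genes were compared as CPM per kb of merged exon. At 6m, Calm2 was highest with 936 ± 59.2, followed by Calm3 with 568 ± 29.8 (SD, n = 4 each). Pvalb (175 ± 47.0), Hpca (174 ± 7.81) and Calb2 (160 ± 16.5) formed a middle group in which neighbours overlapped, and Vsnl1 followed with 93.0 ± 4.73. Calb1 (10.1 ± 1.46), Ncald (4.29 ± 0.698) and Scgn (2.78 ± 1.66) were lowest, with overlap between Ncald and Scgn. At 24m, Calm2 (696 ± 35.9) and Calm3 (588 ± 82.0) overlapped, and Pvalb (94.4 ± 44.3) stood below Hpca (136 ± 16.7) and Calb2 (110 ± 25.0), although neighbours from Hpca to Vsnl1 (85.2 ± 11.4) overlapped. Calb1 (13.9 ± 1.05), Ncald (7.84 ± 0.954) and Scgn (0.920 ± 0.675) were separate from each other. The values depend on the length used, and per kb of the canonical transcript Ncald had 11.7 at 6m and 21.4 at 24m, the latter overlapping with Calb1 (22.9).

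Within an age, the members did not vary together as a group. After the age means were removed, log2 CPM over the 8 libraries correlated between Calb2 and Pvalb (Pearson r = 0.94), whereas Vsnl1 ran opposite to both (r = -0.92 with Calb2 and -0.95 with Pvalb). Scgn and Ncald had r = 0.85. These are descriptions over 8 libraries, among which 24m replicate 1 stood apart. The log2 ratio of Calb1 to Calb2 was -2.08 ± 0.29 at 6m and -1.07 ± 0.34 at 24m (SD, n = 4 each), without overlap between the ages. The difference between their fold changes was 0.99 on the log2 scale and dropped to 0.28 with the length trend removed.

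Among 13538 genes compared, those most like Calb2 within an age were Serpinb6a, Lsm10 and Pafah1b3 (r = 0.993 to 0.997), and those most like Pvalb were Metrn, Npepl1 and Eci1 (r = 0.995 to 0.997). For Scgn they were Sp7, the bulb marker Doc2g and Nfx1 (r = 0.99, 0.98 and 0.98). Ncald was followed by Ywhaz, Fam81a and Cldn12 (r = 0.98 to 0.99), and Calb1 by Zfp607b, Stk17b and Zfp280c (r = 0.95 to 0.97). For Hpca they were Mical2, E2f1 and Map3k3 (r = 0.96 each), and for Vsnl1 they were Cggbp1, Plcl1 and Cntn3 (r = 0.99 each). Calm2 had Tmem232, Ak6 and Gmeb2 (r = 0.98 to 0.99), and Calm3 had Gnai2, Slx9 and Dhdds (r = 0.99 each).

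The wider EF-hand families were examined next. Of 59 further EF-hand genes, 51 were tested, of which 10 rose and 17 fell, and 52.9% were called against 43.6% of all genes. With the length trend removed 12 rose and 13 fell, against 3568 higher and 2885 lower of all 16730 genes tested. With library totals alone 12 rose and 11 fell, against 5449 higher and 1746 lower of all genes tested. Among the neuronal calcium sensors, 3 of 10 rose and 1 fell. Hpcal4, a relative of Hpca, rose by 2.24 ± 0.19 on the log2 scale (29.4 ± 7.08 CPM at 6m and 139 ± 24.6 CPM at 24m, edgeR adjusted p = 3.49e-05). Ncs1, the sensor of exocytosis and of several receptors, rose by 1.25, as did Kcnip4, a subunit of potassium channels, by 0.80. The span of Kcnip4 holds 26 other annotated genes on its strand, so its counts are uncertain. Guca1b, a guanylate cyclase activator, was the gene that fell (-1.06, below 1 CPM on average and named after its values were seen).

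Of the calmodulin-like genes, 7 of 10 were tested, 3 fell and 1 rose. Cabp1, a neuronal relative of calmodulin that regulates calcium channels, fell from 463 ± 23.9 to 274 ± 44.3 CPM (log2 fold change -0.76, edgeR adjusted p = 0.000539). Calml4 (-1.25) and Cabp2 (-0.90) fell at low levels, and Cabp7 rose (0.82). Among 12 tested of 15 S100 genes, 6 fell and none rose, with a median log2 fold change of -0.95. S100b, abundant in astrocytes, fell from 301 ± 60.8 to 123 ± 27.3 CPM (log2 fold change -1.29, edgeR adjusted p = 0.000323), and S100a13 (-1.08) and S100a9 (-1.40) fell too. The astrocyte markers had a summed level of 394 to 447 CPM at 6m and 815 to 983 CPM at 24m, with 3 of 4 called higher and none lower. That sum rose mostly through Gfap (mean 190 CPM at 6m and 520 CPM at 24m) and Slc1a3 (55.9 and 207 CPM). Aldh1l1 (mean 170 and 141 CPM, log2 fold change -0.26), named after its values were seen, was not called. The part of astrocytes in the level of S100b was not tested. Of the other EF-hand genes, 22 of 24 were tested, 6 rose and 7 fell. Necab1, a neuronal protein, had the largest rise (2.28), followed by Calu, a calumenin of the secretory pathway (1.26), and Ppp3r1, the regulatory subunit of calcineurin (1.16). The centrin Cetn2 (-1.27), Cib2, a calcium- and integrin-binding protein (-1.004), and Tesc (-0.99) had the largest falls.

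The partners of calmodulin were divided into regulators, which bind calmodulin or the enzymes it activates, and those enzymes and pumps themselves. Of 12 regulators, 4 fell and 1 rose, with a median log2 fold change of -0.47. Nrgn, neurogranin, which holds calmodulin at dendritic membranes, fell from 3268 ± 141 to 1838 ± 244 CPM (log2 fold change -0.83, edgeR adjusted p = 0.000265). Pcp4, a small calmodulin-binding protein (-1.14), and Camk2n1, an inhibitor of the kinase CaMKII (-1.09), fell, and Rcan2, a regulator of calcineurin, rose (0.63). Of 27 enzymes and pumps, 17 rose and 2 fell, with a median of 0.70. Adcy1, a calmodulin-stimulated adenylyl cyclase, rose from 8.87 ± 1.17 to 99.7 ± 45.8 CPM (log2 fold change 3.49, edgeR adjusted p = 5.86e-05). The pump Atp2b4 (3.34) and the nitric oxide synthase Nos1 (3.05) rose next most, whereas the pump Atp2b1 (-1.20) and the kinase Camk1 (-0.58) fell. Over both lists, 18 of 39 genes rose and 6 fell, or 61.5% called, against 43.6% of all genes tested (25.3% higher and 18.3% lower). With the length trend removed 11 partners rose and 5 fell, against 3568 higher and 2885 lower of all 16730 genes tested.

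**Figure D5:**
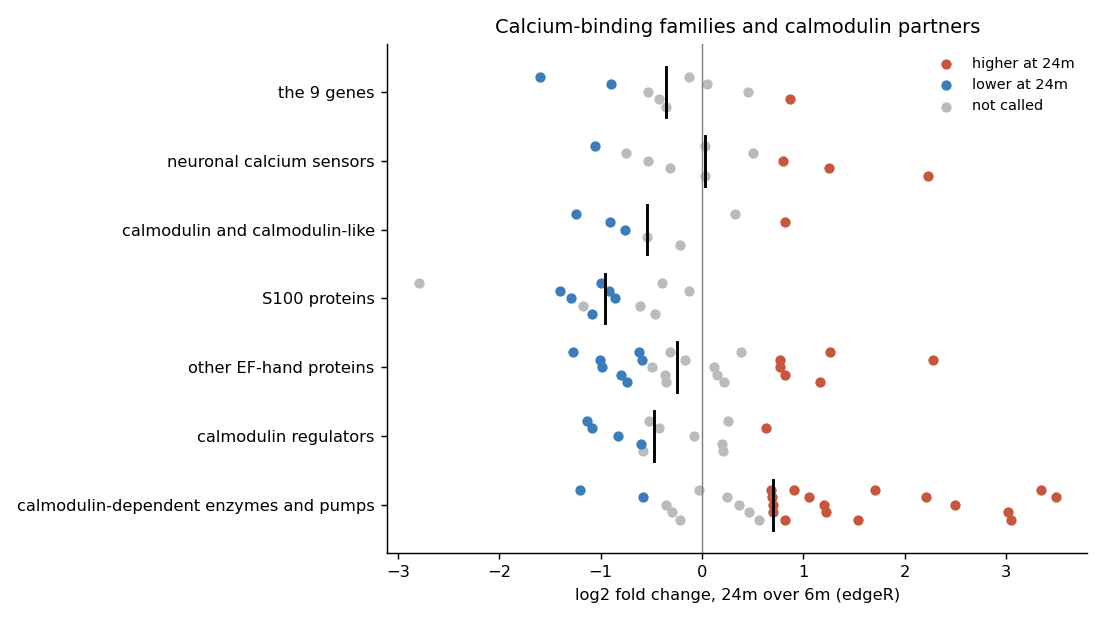
Log2 fold change of 24m over 6m (horizontal axis) for each tested gene of the 9 members and of 6 lists, red if called higher, blue if called lower and grey if not called; black bars are medians. The medians ran from -0.95 for the S100 genes to 0.70 for the calmodulin-dependent enzymes and pumps, and 17 of the 27 enzymes and pumps were called higher.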

How the data were processed

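The authors trimmed reads with Trim Galore, aligned them to GRCm39 with HISAT2 2.1.0 and deposited raw counts per Ensembl gene, 1 column per library, without normalization. Strand use and the handling of multimapping reads are not given in the sources used here. Identifiers were matched to GENCODE symbols of the same assembly in a later release (22281 of 22430). Testing was limited to genes above 5 counts in 4 or more libraries and used edgeR 4.0.16 (R 4.3.3), with TMM factors and age as the single term, and p-values were adjusted over all 16730 genes. P-values reflect the spread between animals, which were of 1 cohort. Log2 CPM used a prior count of 2. The precision of a level is limited by the spread between 4 libraries. Length and GC trends were removed with a smoothed offset per library.

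The members, gene lists and tests were chosen with earlier results of these data known. Genes named were all members, per list the 3 highest and the 3 lowest log2 fold changes among called genes (mean of at least 1 CPM), and per member the 3 genes with the highest within-age r. Some genes that the rule would name are not reported here. Coding sequences were read from canonical transcripts of GRCm39. As alternatives, DESeq2 1.42.0 and limma-voom (limma 3.58.1) were run, as were other scaling factors and filters, left-out libraries, a replicate block, trend removal and thinning. On simulated counts of the 24m against 6m comparison (16730 genes), 82% of 200 genes given a log2 change of 1 were recovered, 6 unchanged genes were called, and 0 were called when none was changed. The simulated counts had no library that stood apart and no trend with length or GC. They therefore do not show how often calls in the real libraries are false.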

Additional observations from a re-analysis of the deposited data

Results flagged for a closer look

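Scgn in the 24m replicate 4 library was at 3.15 CPM, whereas the other 24m libraries were at 0.774 to 1.07 CPM. The gap to the nearest library took up 0.876 of the range of the group, above the 95% critical value of Dixon's test for 4 samples. It was the single such value among 20 groups of 4 that were looked at, and chance alone gives about 1 in 20. The olfactory bulb markers of that library summed to 113 CPM, against 49.8 to 62.1 CPM in the other 24m libraries, and their part in the Scgn value was not tested.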

How the results depend on the processing

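Among the 9 genes, 1 was called higher and 2 lower. With library totals alone the counts were 2 and 0, without a fold-change threshold 2 and 5, and with the length trend removed 0 and 1. Over all 16730 genes tested, 5479 were higher and 4999 lower without that threshold. The counts over all genes were 5449 and 1746 with library totals alone, and 3568 and 2885 with the length trend removed. Leaving out 1 library gave 0 to 3 genes called lower: 0 without 24m replicate 2 or 3, and 1 without 6m replicate 1, 3 or 4 or 24m replicate 4. The sign of Calm2 reversed with the length trend removed (0.19), that of Vsnl1 with the length trend removed (0.067) and with library totals alone (0.099), and that of Calm3 without 24m replicate 1 (-0.038, with 0.11 at most when another library was left out). Other EF-hand genes called lower numbered 11 with library totals alone, and calmodulin partners called higher numbered 11 with the length trend removed. Without a fold-change threshold, 10 partners were called lower. The cause of these shifts was not tested. With the GC trend removed Calm2 was also called (-0.67). Same-numbered libraries did not deviate together (r = 0.27, 0.14, 0.078 and -0.35 for replicates 1 to 4, with 1 of 4 correlating best with its own number). With the replicate block, 1 member was called higher and 2 lower, and 20 other EF-hand genes and 7 partners were called lower. Over all 21 alternatives, Ncald was called in 20, Pvalb in 15 and Scgn in 15. The widest 95% intervals of the log2 fold change were those of Scgn (-2.81 to -0.38) and Pvalb (-1.57 to -0.22).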

Other observations

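Markers of other cells and regions gave further values in the same libraries. Immature neuron markers had 2 of 6 called higher and 2 lower, with a summed level of 1103 to 1187 CPM at 6m and 686 to 862 CPM at 24m. Most of that sum was Tubb2b, a tubulin (1116 ± 36.03 CPM at 6m and 754 ± 76.4 CPM at 24m, SD, n = 4 each), which was not called (log2 fold change -0.57). Sox4 (-1.07) and Igfbpl1 (-1.03) fell, and Sox11 rose (0.76). Dcx, below 1 CPM on average and named after its values were seen, rose too (1.95, edgeR adjusted p = 0.0145).

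Among interneuron genes, the neuropeptides Sst and Npy fell (log2 fold changes -1.01 and -0.99), while Gad2, a GABA-synthesizing enzyme (1.96) and the receptor kinase Erbb4 (2.53) rose. Of thalamus and midbrain markers, 1 of 6 rose and 1 fell, with summed levels of 137 to 150 CPM at 6m and 139 to 148 CPM at 24m. Of the pan-neuronal markers, Syt1 rose (1.55) and Tubb3 fell (-0.63).

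Oligodendrocyte markers summed to 2555 to 3286 CPM at 6m and 2777 to 3224 CPM at 24m, with 1 of 4 called higher. Microglia markers had 2 of 3 called higher (Cx3cr1, 1.72, and P2ry12, 0.75), and summed to 99.6 to 106 CPM at 6m and 132 to 153 CPM at 24m. Most of that sum and of its rise was Csf1r (mean 95.8 CPM at 6m and 125 CPM at 24m). Csf1r, named after its values were seen, was not called (log2 fold change 0.38, edgeR adjusted p = 0.00328). Endothelial markers had Flt1 called higher (1.24) and Cldn5 lower (-1.06), and summed to 31.9 to 49.3 CPM at 6m and 21.99 to 32.6 CPM at 24m.

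S100a5, a gene of olfactory sensory neurons chosen after its values were seen, had the lowest log2 fold change of all listed EF-hand genes but was not called (-2.79 ± 1.29, edgeR adjusted p = 0.0828). Its level was 0.884, 8.08, 9.57 and 8.56 CPM at 6m and 0, 0.0874, 0.048 and 3.78 CPM at 24m. The lowest 6m library (replicate 1) and the highest 24m library (replicate 4) were also the lowest and the highest of their age in the summed olfactory bulb markers, whose part in the level of S100a5 was not tested.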
